A study of Mus musculus with 72 samples.

Results

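The genes described here mark the cells of the cerebellum: Pcp2, Calb1, Car8 and Itpr1 of Purkinje cells, Cbln1, Cbln3 and Zic1 of granule cells, and En2 of the tissue that gives rise to the cerebellum. Members were all probe sets that carried 1 of these 8 gene symbols and no other in the array annotation. This gave 18 of the 45101 probe sets, for 7 of the 8 genes: 4 for Calb1, 3 each for Pcp2, Car8 and Cbln1, 2 each for Cbln3 and Zic1, and 1 for En2. Itpr1, the inositol trisphosphate receptor of Purkinje cells, was not analysed here. Each probe set was kept apart, because probe sets of a gene read different stretches of its transcripts and can disagree.

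RNA came from tissue labelled as whole brain of male mice of 3 inbred strains, 129S2, DBA/2J (D2) and C57BL/6J (B6). The mice were taken at embryonic stage E14.5, at 1 and 7 days after birth (P1, P7) and at P90, which the labels give as 11 to 14 weeks of age. Each of the 12 groups had 3 Affymetrix arrays, a number that limits the precision. P90 animals had been bought from a supplier (129S2 from another one than D2 and B6), and the younger animals were their offspring, so in contrasts with 129S2 supplier and strain cannot be told apart. Liver arrays of the same strains and stages, 36 as well, served as a background.

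The cerebellum grows from the dorsal hindbrain next to the isthmus, where the paired transcription factors En1 and En2 are needed for its territory. Purkinje cells are born first and send the only output of the cerebellar cortex, and granule cells multiply after birth and contact them through parallel fibres. Cbln1 is secreted by granule cells and binds the presynaptic neurexins. Several of these genes are not cerebellar alone: Calb1 and Zic1 are also used by other brain regions, whereas Pcp2, Cbln3 and the granule cell receptor subunit Gabra6 are textbook markers of the mature cerebellum.

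For 3 of the genes the RefSeq tables held the stretch from 250 bases before to 50 bases after a transcript start (build GRCm38.p6). The Pcp2 and Zic1 stretches are shown because Pcp2 never passed and Zic1 always passed the array median in the brain data below. Both are 300 bases long and read 5′ to 3′ on the minus strand, at chr8:3625498-3625797 for the first of 4 annotated Pcp2 starts and at chr9:91365719-91366018 for Zic1. Capitals mark AGGTCA, the core half-site of nuclear receptors such as the Purkinje cell factor Rora, which was searched on both strands (TGACCT on the other).
Pcp2: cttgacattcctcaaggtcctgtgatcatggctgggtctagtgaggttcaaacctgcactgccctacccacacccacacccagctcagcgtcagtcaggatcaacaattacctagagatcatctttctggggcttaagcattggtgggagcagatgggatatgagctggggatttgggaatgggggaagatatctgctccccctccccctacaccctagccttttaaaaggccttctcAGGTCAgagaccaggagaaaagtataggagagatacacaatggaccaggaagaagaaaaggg
Zic1: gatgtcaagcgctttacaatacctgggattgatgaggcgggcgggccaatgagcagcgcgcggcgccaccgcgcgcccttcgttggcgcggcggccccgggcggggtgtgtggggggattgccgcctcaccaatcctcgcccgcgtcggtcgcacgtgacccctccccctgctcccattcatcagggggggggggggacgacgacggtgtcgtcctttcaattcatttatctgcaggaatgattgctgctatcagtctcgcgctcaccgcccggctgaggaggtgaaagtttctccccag
The motif occurred in 16.0% of 27025 RefSeq stretches of this length, 1 time in that of Pcp2 and not in those of Zic1 or Cbln3. The Zic1 stretch held 31 CG dinucleotides and only 9.24% of all stretches held more. Pcp2 held 1 and Cbln3 held 2, against a median of 7 over all stretches.

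The values are log2 RMA signals, for which 1 unit is a 2-fold difference. Because the 9 arrays of each stage had been normalized apart, levels are also given relative to the median of all probe sets on the same array, a yardstick and not a detection limit. That median lay between 7.12 and 7.30 in E14.5, P1 and P7 brain and between 6.41 and 6.45 at P90. All 36 arrays correlated best with the marker profile of their own strain, P90 129S2 replicate 2 weakly (r = 0.33 across 400 marker probe sets, against 0.79 or more elsewhere). At E14.5, B6 replicate 2 and D2 replicate 1 stood apart in genes of other tissues. Alb, the albumin of liver, was at 13.40 and 11.91 there and between 8.13 and 10.75 on the other E14.5 arrays, and the collagen gene Col1a1 was at 11.32 and 11.47 there and between 8.13 and 9.66 on the others. The labels do not say that the 3 arrays of a group came from separate animals, so p-values measure the spread between these samples.

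Pcp2 and Cbln3, markers of the mature cerebellum, were low in the tissue labelled as whole brain, at each stage. Pcp2, a regulator of G proteins found in Purkinje cells, stayed below the array median on 36 of 36 brain arrays with each of its 3 probe sets, and so did Cbln3, a cerebellin that granule cells make together with Cbln1, with both of its own. In all, 8 of the 18 probe sets never passed the median, against 36.1% of all 45037 probe sets other than controls. The others were 1 of the 4 of Calb1 and 2 of the 3 of Car8.

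No Pcp2 probe set passed the array median at any stage. Probe set 1419084_a_at was at 5.65, 5.65 and 5.54 in 129S2, 5.62, 5.72 and 5.73 in D2 and 5.56, 5.71 and 5.65 in B6 at P90. Relative to the array median it covered only -1.05 to -0.60 over the 36 brain arrays, so the stages overlapped. Probe set 1419085_at covered -0.87 to -0.26 and 1424944_at covered -2.84 to -1.96. For 1424944_at the stages did not all overlap: P7 arrays (-2.30 to -1.96) lay above those of E14.5 (-2.66 to -2.34) and P90 (-2.84 to -2.64). After joint quantile normalization the P90 level exceeded the E14.5 level by 0.20 ± 0.09, 0.18 ± 0.11 and -0.48 ± 0.05 (mean over strains ± SD, n = 3 strains) in the order in which these probe sets were named. For Cbln3 the same difference was 0.10 ± 0.05 for probe set 1422911_at and -0.52 ± 0.17 for 1455445_at. At P90, 1422911_at read 4.29, 4.26 and 4.16 in 129S2, 4.23, 4.24 and 4.23 in D2 and 4.23, 4.20 and 4.17 in B6, and these strains overlapped.

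**Figure D1:**
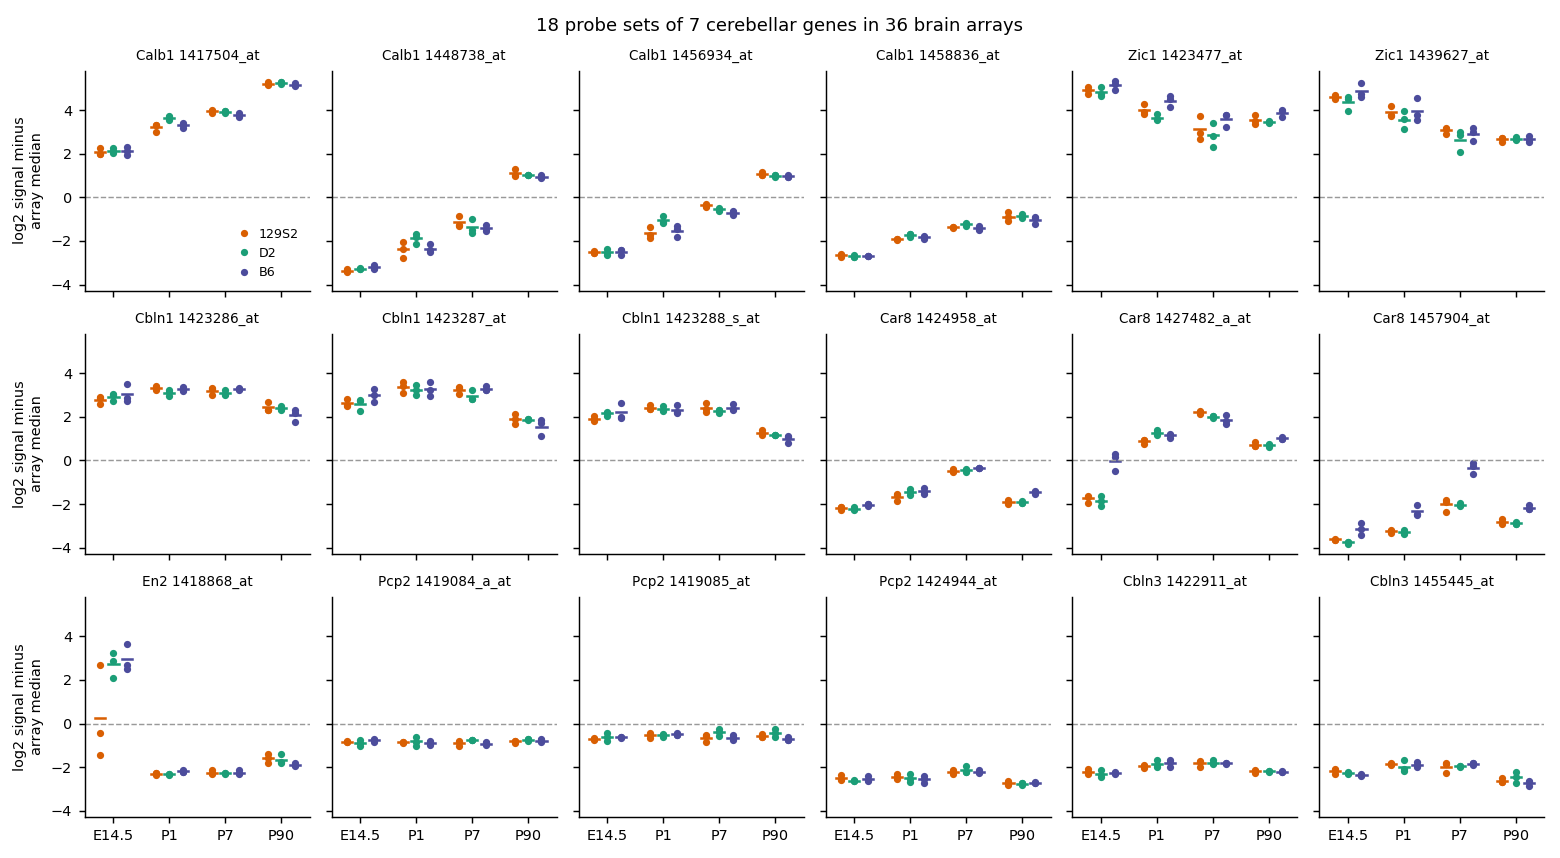
Each point is 1 brain array and each bar the mean of 3, for 129S2, D2 and B6 at E14.5, P1, P7 and P90; the vertical axis is the log2 signal minus the median of its array, and the dashed line marks that median. Calb1 climbs with stage, Zic1 declines, En2 is above the line at E14.5 alone, and the Pcp2 and Cbln3 probe sets lie below the line throughout.

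Genes of the wider lists differed. Of 16 granule cell genes measured, 6 were above the array median on all 36 brain arrays, namely Neurod1, Pax6, Cadps2, Unc5c, Kcnd2 and Calb2, and 2 were below it on all 36. Of the 2 low genes, Gabra6, a GABA receptor subunit of granule cells, was between -2.79 and -2.17 on the 27 arrays from P1 to P90, and Atoh1, the factor that specifies granule cell precursors, was between -1.88 and -1.37. Of 12 measured isthmus and hindbrain genes, 8 were below the median on all 36 arrays, among them Ptf1a, Hoxa2, Hoxb2 and Hoxb4, and none of the 12 exceeded it on every array. Of 9 forebrain genes, 6 exceeded the median on all 36 arrays, and the share of all probe sets that did so was not counted. Of 13 Purkinje cell genes measured, 7 were above the median on all 36 arrays and 0 were below it on all 36. Pcp4, Pvalb (a calcium buffer of fast-firing neurons) and the glutamate transporter Slc1a6 were above it on all 27 arrays from P1 to P90. Not all of the list were: Ppp1r17 and Lhx5 were above it on 0 of these 27 arrays, Lhx1 on 5 and Homer3 on 25. Other brain regions share Pvalb and Pcp4. Relative to the median, Pvalb lay between 0.48 and 1.09 at P1 and P7, within its liver range of 0.16 to 1.29. At P90 it lay between 3.67 and 4.10. Slc1a6 lay between 0.02 and 1.46 on the 27 arrays and between -1.90 and -0.53 in liver. Which parts of the brain the tissue held was not tested, nor whether the probe sets of Pcp2, Cbln3 and Gabra6 respond to their transcripts. In bulk tissue, fewer cells of a type and less RNA per cell cannot be told apart.

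Liver gave a level for the same probe sets in a tissue without these cells. The liver array medians were lower than those of brain, between 6.35 and 6.76 at E14.5, P1 and P7 and between 5.03 and 5.08 at P90, which raises liver values relative to them. Pcp2 probe sets 1419084_a_at and 1419085_at exceeded the array median on 0 of 36 brain arrays and on 5 and 8 of 36 liver arrays. Cbln3 1422911_at ranged from -2.43 to -1.66 in brain and from -1.55 to -0.73 in liver relative to the median, but as deposited it ranged from 4.16 to 5.56 in brain and from 4.03 to 5.80 in liver, and these ranges overlapped. Calb1 1417504_at (brain 1.92 to 5.29, liver -2.90 to -1.59, relative to the median) and both Zic1 probe sets were higher in brain without overlap. So were Cbln1 1423287_at (brain 1.10 to 3.60, liver -3.53 to 0.02) and, by a small margin, Cbln1 1423286_at (brain 1.75 to 3.49, liver 0.01 to 1.57). Stages and tissues were normalized apart, so no test was made of these differences.

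**Figure D2:**
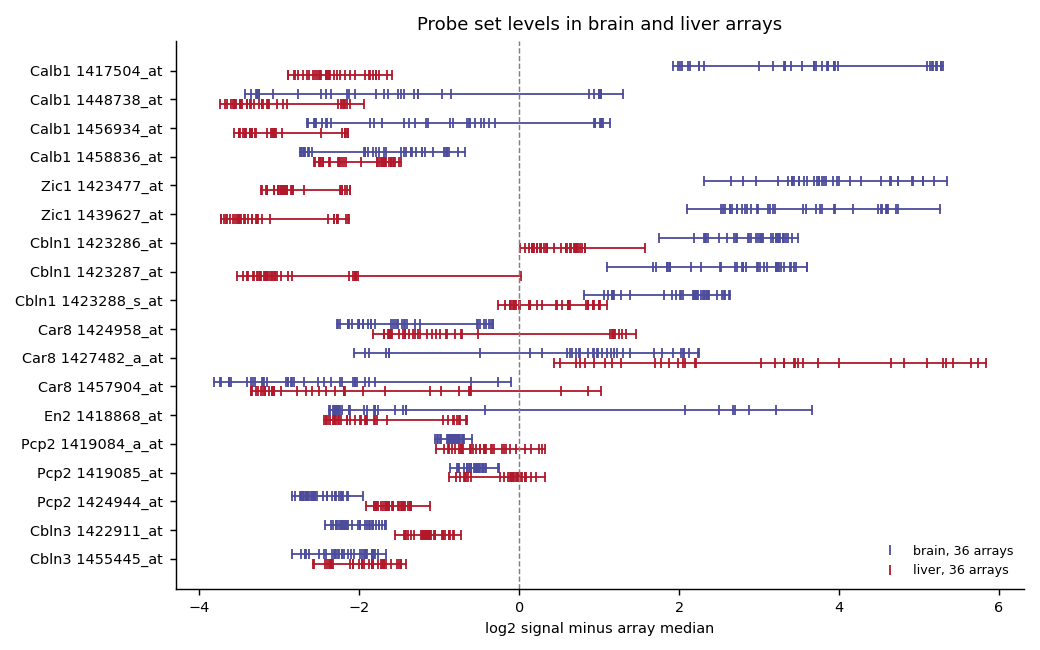
Each tick is 1 array, placed at its log2 signal minus the median of that array, with brain above liver for each of the 18 probe sets. Calb1 1417504_at, both Zic1 probe sets and Cbln1 1423286_at and 1423287_at separate the tissues with brain higher. No Pcp2 or Cbln3 value in brain exceeds the highest liver value of its probe set, and Car8 1427482_a_at reaches its highest values in liver.

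Calb1 showed the clearest onset. It encodes calbindin, a calcium buffer of Purkinje cells and of many other neurons. Probe set 1417504_at read 9.27, 9.27 and 9.53 in 129S2, 9.44, 9.51 and 9.33 in D2 and 9.37, 9.21 and 9.61 in B6 at E14.5. At P90 it read 11.58, 11.60 and 11.70 in 129S2, 11.72, 11.69 and 11.64 in D2 and 11.52, 11.59 and 11.63 in B6. Every P90 array was above every E14.5 array. The strains overlapped at E14.5, and at P90 every D2 array was above every B6 array, by a mean difference of 0.10 (SE 0.09, limma adjusted p = 0.828). After quantile normalization of the 36 brain arrays together, the means over 9 arrays were 9.16 ± 0.15, 10.43 ± 0.22, 10.90 ± 0.09 and 12.08 ± 0.06 (SD) at E14.5, P1, P7 and P90.

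The gain came in 3 steps of unequal size: 1.27 ± 0.18 at P1 over E14.5, 0.47 ± 0.16 at P7 over P1 and 1.17 ± 0.04 at P90 over P7 (mean over 3 strains ± SD). The total was 2.91 ± 0.05. Probe sets 1448738_at and 1456934_at were below the array median on all 27 arrays before P90 and above it on all 9 P90 arrays. Their totals were 4.04 ± 0.18 and 3.36 ± 0.08, and 1458836_at, which stayed below the median, gained 1.82 ± 0.08. In each strain the P90 level of all 4 probe sets thus exceeded the E14.5 level by 2-fold or more. The genes whose levels over the 36 arrays were most like those of 1417504_at were Kcnab1, Atp6v1g2 and Kcnc2 (Pearson r from 0.991 to 0.994 among 13097 genes), which is a description of arrays that share stages.

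Zic1 went the other way. This zinc finger factor keeps granule cell precursors dividing and is used in the dorsal midline of the whole brain. Probe set 1423477_at read 12.20, 12.32 and 12.01 in 129S2, 12.35, 11.99 and 11.94 in D2 and 12.19, 12.47 and 12.65 in B6 at E14.5. At P90 it read 9.94, 10.18 and 9.79 in 129S2, 9.84, 9.86 and 9.92 in D2 and 10.42, 10.39 and 10.10 in B6. The P90 arrays were all below the E14.5 arrays. The strains overlapped at E14.5, and at P90 every D2 array was below every B6 array. The normalized change between E14.5 and P90 was -1.54 ± 0.04 for this probe set and -2.13 ± 0.27 for 1439627_at, and both were 2-fold or more in each strain. It lay between E14.5 and P7, and from P7 to P90 the 2 probe sets differed by 0.32 ± 0.15 and -0.32 ± 0.18, in opposite directions. Zic1 nevertheless exceeded the array median on 36 of 36 arrays, whereas its relatives Zic4 and Zic5, above the median in all E14.5 arrays, lay below it on all P90 arrays.

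Cbln1 was present from the start and lower in adults. Which cells gave its signal was not tested, and the granule cell markers Cbln3 and Gabra6 were below the array median on all 36 brain arrays. Relative to that median, Cbln1 probe set 1423287_at lay between 1.10 and 3.60 on the same arrays. The normalized means over 9 arrays were 9.80 ± 0.31, 10.34 ± 0.25, 10.20 ± 0.20 and 8.68 ± 0.30 at E14.5, P1, P7 and P90. At P90 the single arrays, as deposited, read 8.59, 8.32 and 8.10 in 129S2, 8.30, 8.27 and 8.32 in D2 and 8.13, 8.27 and 7.51 in B6, with overlap between strains. The change from P7 to P90 was -1.51 ± 0.32 for 1423287_at and -1.34 ± 0.19 for 1423288_s_at (mean over 3 strains ± SD). The third, 1423286_at, changed by -0.80 in 129S2, -0.85 in D2 and -1.34 in B6, short of 2-fold in 2 strains, so 2 of 3 probe sets were counted as lower. Of 5 genes of its pathway, P90 was 2-fold or more above E14.5 in each strain for 2, against 16.3% of all probe sets tested. These were the glutamate receptor relative Grid1 (1.52 ± 0.20) and the neurexin Nrxn3 (1.10 ± 0.10). Cbln4 (1.00 ± 0.64) and Nrxn2 (0.55 ± 0.06) fell short of that rule, and Cbln2 changed by -0.33 ± 0.38.

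Car8 was highest at P7. It encodes a carbonic anhydrase relative without enzyme activity that binds the inositol trisphosphate receptor in Purkinje cells. The normalized means of probe set 1427482_a_at over 9 arrays were 5.80 ± 0.93, 8.17 ± 0.20, 9.06 ± 0.17 and 7.74 ± 0.15 at E14.5, P1, P7 and P90. Its step at birth was unequal among strains, with 2.69 in 129S2, 3.18 in D2 and 1.24 in B6. Between P7 and P90 it changed by -1.54 in 129S2, -1.45 in D2 and -0.98 in B6. Probe sets 1457904_at and 1424958_at had their highest mean at P7 as well, while staying below the array median on every brain array.

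En2 was an embryonic signal here. At E14.5 it read 5.82, 6.84 and 9.95 in 129S2, 10.18, 10.47 and 9.36 in D2 and 9.77, 9.99 and 10.95 in B6. On the 27 later arrays it lay between 4.48 and 5.09. Thus 7 of 9 E14.5 arrays exceeded their array median, those below it being 129S2 replicates 1 and 2, and 0 of 27 later arrays did. The normalized step from E14.5 to P1 was -2.61 in 129S2, -5.08 in D2 and -5.24 in B6.

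Counted over the 10 probe sets whose highest group mean exceeded the array median, which were the ones compared between stages by count, P1 was 2-fold or more above E14.5 in each strain for 2 (Calb1 1417504_at and Car8 1427482_a_at) and below it for 1 (En2). Over all 27630 such probe sets the shares were 4.18% and 3.42%. Between P1 and P7, 0 were higher and 0 lower (1.16% and 0.391% of all). Between P7 and P90, 3 were higher, all of Calb1, and 2 lower, both of Cbln1 (9.83% and 9.18% of all). From E14.5 to P90, 3 Calb1 probe sets were higher, and En2 and both Zic1 probe sets were lower (16.3% and 15.7% of all). En2 and the Calb1 probe sets 1448738_at and 1456934_at passed the minimum only through the stage where they are high, so these counts do not describe all 18 probe sets. As deposited, without joint normalization, 1 in place of 3 probe sets was higher and 4 in place of 2 were lower at P90 than at P7, and for 6 in place of 3 the P90 level was below that of E14.5.

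Genes of the wider lists moved in both directions. Of all probe sets tested, 16.3% were 2-fold or more higher in each strain at P90 than at E14.5, and 15.7% were lower. Among 13 Purkinje cell genes tested, P90 was above E14.5 for 4 and below it for 4, with a median change of 0.49 against -0.10 over all probe sets tested. The largest were Lhx1, an early Purkinje cell factor (-5.05 ± 0.55), Pvalb (3.65 ± 0.24), Pcp4 (3.28 ± 0.16) and the glycolytic enzyme Aldoc (2.65 ± 0.09). Among 14 granule cell genes tested, 4 were higher and 6 lower, with a median of -0.75. Gabrd, a GABA receptor subunit that other forebrain neurons share, gained 5.36 ± 0.01 and the NMDA receptor subunit Grin2c gained 2.82 ± 0.02, whereas Zic5 and the neurogenic factor Neurod1 changed by -3.36 ± 0.09 and -2.86 ± 0.09. Of 8 genes of inositol trisphosphate signalling, 0 were 2-fold higher or lower in each strain, and the largest change was that of the phospholipase Plcb4 (1.06 ± 0.30). No p-value is attached to these stage differences.

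Between strains, 4 of 120 tests of the 10 probe sets in 12 contrasts were called by limma, at a Benjamini-Hochberg adjusted p below 0.05 over all probe sets and a fold of at least 1.5. Over all probe sets 2.77% of such tests were called. The 4 calls were all at E14.5, 2 for Car8 and 2 for En2. The share of all probe sets called at E14.5 was 5.49% for D2 minus B6, 3.98% for 129S2 minus B6 and 2.66% for 129S2 minus D2. At P1, P7 and P90 it was 2.21%, 2.26% and 3.05% for D2 minus B6, 2.24%, 2.19% and 2.48% for 129S2 minus B6 and 2.37%, 2.02% and 2.29% for 129S2 minus D2, and 0 of the 10 probe sets were called at these stages in this fit. Zic1 1423477_at was called there in other fits, which are given with its values.

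Car8 was lower in both 129S2 and D2 than in B6 embryos. Probe set 1427482_a_at read 5.65, 5.34 and 5.61 in 129S2, 5.43, 5.63 and 5.22 in D2 and 6.77, 7.57 and 7.44 in B6. The B6 arrays were all above the others, and 129S2 and D2 overlapped. The difference was -1.73 (SE 0.14, limma adjusted p = 5.2e-10) for 129S2 minus B6 and -1.84 (SE 0.14, limma adjusted p = 8.45e-11) for D2 minus B6, and both share the B6 arrays. At P1 the intervals of the same differences were -0.55 to 0.02 and -0.15 to 0.41, and neither was called. The strain difference changed with stage by up to 2.07 log2 units (limma F test of the interaction, adjusted p = 7.19e-08; 4.74% of all probe sets were called in that test).

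Since Car8 was also high in liver, markers of liver were read beside it. Car8 1427482_a_at exceeded the array median on 36 of 36 liver arrays, with a highest value 5.83 above it, and at E14.5 liver it read 7.51 to 7.89 in B6. Of the B6 brain arrays, Alb was at 8.94 in replicates 1 and 3 and at 13.40 in replicate 2, while Car8 was at 6.77, 7.44 and 7.57. D2 replicate 1, with Alb at 11.91, had Car8 at 5.43. Without B6 replicate 2 and D2 replicate 1 the differences were -1.57 for 129S2 minus B6 and -1.68 for D2 minus B6 (limma adjusted p = 2.19e-08 and 2.8e-08), a setting added after the data were seen. The liver list as a whole (4 genes measured) had a summed level between 6.57 and 6.81 in 129S2, between 6.42 and 6.67 in D2 and between 5.21 and 7.67 in B6 brain at E14.5, on the log2 scale relative to the array median. That sum does not read liver alone, because it holds Ttr, which is also in the list of choroid plexus genes. Ttr lay between 5.02 and 6.92 on the E14.5 brain arrays on this scale, against 0.85 to 6.12 for Alb. Whether liver RNA had a part in the Car8 difference was not tested.

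The 3 Car8 probe sets disagreed on when the strains differ. Probe set 1457904_at was below the median on every brain array and was tested only without the minimum on level. At P7 it read 5.34, 4.86 and 5.40 in 129S2, 5.17, 5.33 and 5.16 in D2 and 6.96, 7.12 and 6.63 in B6, with B6 above all others. The differences at P7 were -1.70 (SE 0.13) for 129S2 minus B6 and -1.69 (SE 0.13) for D2 minus B6, with limma adjusted p of 5.6e-10 and 4.08e-10 over all 45037 probe sets. In the same fit 1427482_a_at gave 0.35 (interval 0.07 to 0.63) and 0.17 (interval -0.11 to 0.45) at P7. For 1457904_at, D2 was called lower than B6 at all 4 stages and 129S2 at P1, P7 and P90, and 1.97% of all tests were called in that setting. The shares of all probe sets called lower in it were 2.18%, 0.939%, 1.08% and 1.43% for D2 minus B6, from the earliest stage to the latest, and 0.955%, 0.959% and 1.15% for 129S2 minus B6 at P1, P7 and P90. Probe set 1424958_at was called in no contrast at the 1.5-fold minimum, its largest differences being -0.42 for 129S2 minus B6 and -0.45 for D2 minus B6 at P90.

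**Figure D3:**
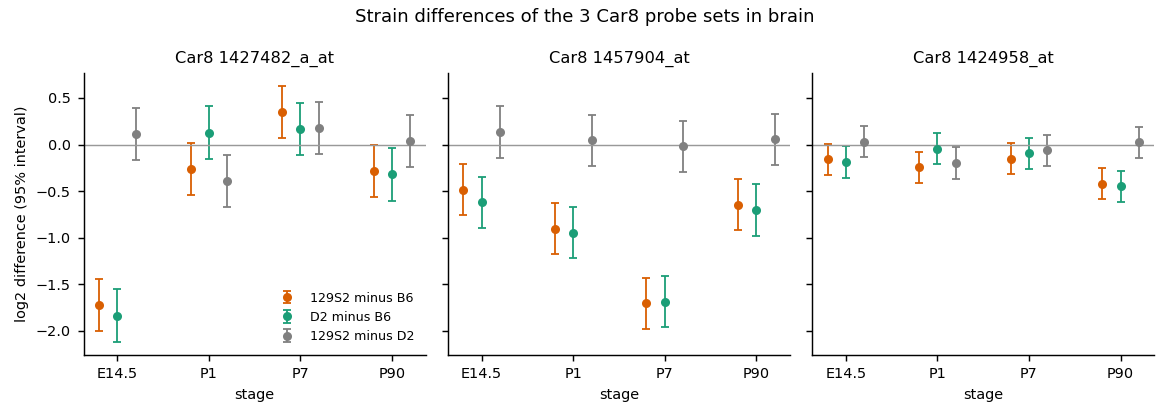
Points are log2 differences between strains at each stage and bars their 95% intervals from the limma fit of 36 brain arrays without a minimum on level, for the 3 Car8 probe sets. The differences from B6 are largest at E14.5 (-1.73 and -1.84) for 1427482_a_at and at P7 (-1.70 and -1.69) for 1457904_at.

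En2 was lower in 129S2 embryos by the fit over all stages, but its arrays were far apart. The difference was -2.70 (SE 0.52, limma adjusted p = 0.000837) for 129S2 minus B6 and -2.46 (SE 0.52, limma adjusted p = 0.00262) for 129S2 minus D2. Replicate 3 of 129S2, at 9.95, lay within the range of D2 and B6. The spread of En2 within strains was 1.34 at E14.5 and 0.05 to 0.17 at later stages, and the fit shares 1 spread over stages. With the 9 E14.5 arrays alone neither difference was called (limma adjusted p = 0.256 and 0.359, SE 0.91). Without 129S2 replicate 3 the differences were -3.90 and -3.67, and without replicate 1 they were -1.84 and -1.61.

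Other regional genes moved with En2 from array to array. En1, its partner in the isthmus, read 4.29, 5.90 and 7.89 in 129S2, 8.51, 8.49 and 7.68 in D2 and 7.56, 7.89 and 8.93 in B6 at E14.5. It was called lower in 129S2 by -2.10 against B6 and by -2.20 against D2 (SE 0.45). That SE comes from a spread shared over stages, and En1 lay between 3.16 and 3.68 on all later arrays. The call thus has the limit given for En2, and a fit of the E14.5 arrays alone is not given for En1. The cortical gene Neurod6 read 12.53, 12.13 and 10.77 in 129S2, 10.39, 11.91 and 11.49 in D2 and 12.31, 12.30 and 8.98 in B6. The arrays with the lowest En2 and En1 (129S2 replicates 1 and 2) thus had high Neurod6, and B6 replicate 3 had the highest En2 with the lowest Neurod6. For the whole forebrain list of 9 genes the summed level ranged from 5.62 to 6.57 in 129S2, from 5.44 to 6.18 in D2 and from 4.88 to 6.27 in B6, and for the 12 isthmus and hindbrain genes from 2.73 to 3.58 in 129S2, from 3.35 to 3.62 in D2 and from 2.98 to 3.71 in B6. None of these genes had every array of 129S2 outside the range of the other strains. The part of tissue composition in the En2 difference was not tested.

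**Figure D4:**
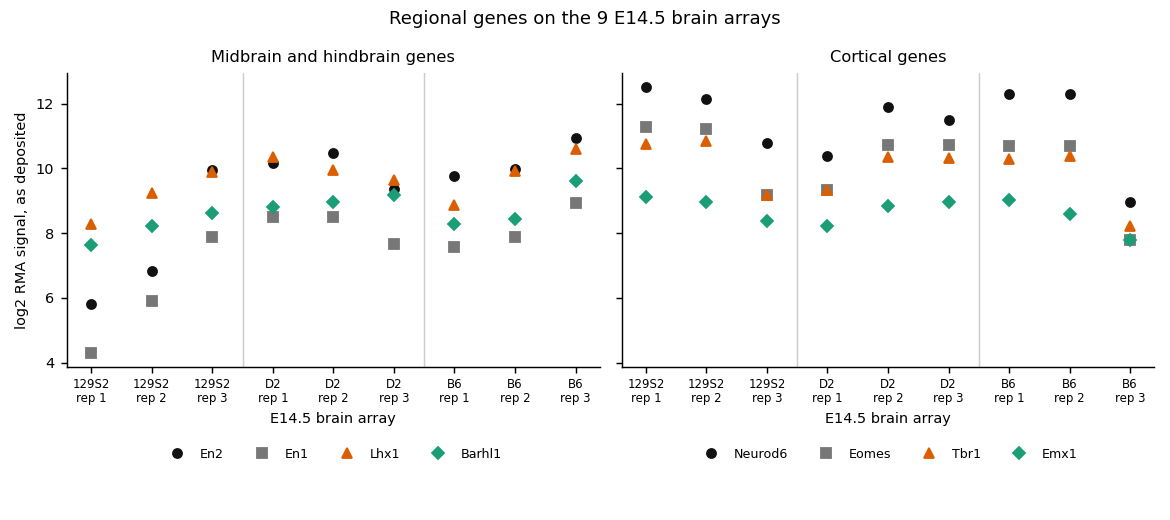
Deposited log2 RMA signals on the 9 E14.5 brain arrays, by strain and replicate, for 4 genes of the midbrain and hindbrain (left) and 4 cortical genes (right). En2 and En1 are lowest on 129S2 replicates 1 and 2, and the cortical genes are lowest on B6 replicate 3.

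Likeness from array to array was read for 1 probe set per gene. Over the 36 deviations from group means, En2 was most like En1 (r = 0.96), Dbx1 (r = 0.94) and Cnpy1 (r = 0.93), out of 13097 genes. Zic1 1423477_at was most like Zic5 (r = 0.88), another Zic gene, and Cbln1 1423286_at was most like Magel2 (r = 0.85). These are descriptions of arrays that share groups, and no p-value is given.

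Calb1 differed between strains at P1 by less than the 1.5-fold minimum. Probe set 1456934_at read 5.28, 5.77 and 5.45 in 129S2, 6.28, 5.96 and 6.00 in D2 and 5.67, 5.84 and 5.34 in B6. Every D2 array was above those of the other strains. The differences were -0.58 (SE 0.11, limma adjusted p = 0.000972) for 129S2 minus D2 and 0.46 (SE 0.11, limma adjusted p = 0.0108) for D2 minus B6. Without the fold minimum 5.10% and 4.06% of all probe sets were called in these contrasts. For 1417504_at they were -0.42 and 0.35 (limma adjusted p = 0.0043 and 0.0243) and for 1448738_at -0.50 and 0.48 (limma adjusted p = 0.0669 and 0.103). The strain difference of 1456934_at varied with stage by up to 0.73 (interaction, limma adjusted p = 0.0237). That call was lost when 129S2 replicate 1, 129S2 replicate 3 or D2 replicate 1 of P1 was left out (limma adjusted p = 0.0598, 0.0515 and 0.0876).

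Averaged over the 4 stages, 0 of 30 member tests were called by limma at the 1.5-fold minimum. Of all probe sets 2.51%, 2.46% and 2.29% were called so for D2 minus B6, 129S2 minus B6 and 129S2 minus D2. An unadjusted limma p below 0.05 was reached by 10 of the 30 tests. The share of all probe sets that did so was not counted, so these 10 have no background to be read against. Zic1 1423477_at came nearest to a call, with D2 below B6 by a difference of -0.57 (SE 0.12, limma adjusted p = 0.000615). At P1 it read 10.95, 10.72 and 10.71 in D2 and 11.25, 11.78 and 11.68 in B6, so every D2 array was below every B6 array. That difference was -0.78 (SE 0.23, limma adjusted p = 0.0589), and with the 9 P1 arrays alone it was called (SE 0.16, limma adjusted p = 0.0495). At P7 it read 10.02, 10.66 and 9.54 in D2 and 11.02, 10.98 and 10.46 in B6, and the ranges overlapped, while D2 was below B6 in each of the 3 pairs of the same replicate number. That difference was -0.74 (SE 0.23, limma adjusted p = 0.077), and with the replicate number as a block it was called (SE 0.17, limma adjusted p = 0.0103). The second Zic1 probe set, 1439627_at, gave -0.28 (limma adjusted p = 0.132). No strain difference of Cbln1 was called at any stage.

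Among 6 wider cerebellar lists, 19 of 588 tests of 49 genes were called between strains within stages, which is 3.23% against 2.77% over all probe sets. Of these, 13 were at E14.5, and 15 were in the lower direction. Over all probe sets E14.5 also had the largest share called for each strain pair, as given above. At E14.5, 3.13% of all probe sets were called lower and 2.36% higher for D2 minus B6. The shares were 2.38% and 1.61% for 129S2 minus B6, and 1.27% and 1.39% for 129S2 minus D2. The gene called most often was Lgi2, from the list of Bergmann glia and cerebellar interneurons. D2 was below B6 for it at E14.5 (-1.03), P1 (-0.71) and P7 (-0.72), and 129S2 was above D2 at P1 (0.63), P7 (0.81) and P90 (0.59). Gdf10, of the same list, was lower in 129S2 than in D2 at E14.5 (-0.76). The other genes called, En1 aside, differed as follows. Kcnd2, a potassium channel of granule and other neurons, was lower at E14.5 (-0.62 for 129S2 minus B6 and -0.83 for D2 minus B6), and so was Cbln4, a cerebellin relative (-0.83 and -0.81). Rora was lower in D2 than in B6 (-0.83) and the glutamate transporter Slc1a6 lower in 129S2 than in B6 (-0.70). 129S2 was below D2 for Barhl1 (-0.82) and Lhx5 (-0.74), and Zic4 was lower in D2 than in B6 at E14.5 (-0.70) and higher in 129S2 than in D2 at P1 (0.86). B6 replicate 3 had the highest Cbln4 of the 9 arrays (9.44, against 7.53 to 8.50 elsewhere). The strain differences of Kcnd2 and Pax6 also varied with stage, by up to 0.86 and 1.01 (limma interaction, adjusted p = 0.00179 and 0.0326). In the lists of forebrain, meninges and red blood cells, Drd1, Foxd1, Lum and Alas2 had 1 call each within stages.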

How the data were processed

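Brain expression was read from 36 arrays, with 36 liver arrays as background, and groups came from the sample labels. Per the labels' protocols, RNA was extracted with TRIzol and RNeasy columns, copied by One-Cycle cDNA synthesis and labelled with biotin. The deposited values are log2 signals that the authors made with RMA, per the submitters' processing notes, version not given. Between 1.55% and 4.31% of values were equal on arrays of the same stage and 0 between stages, so the stages had been normalized apart and are compared by size without p-values, after joint quantile normalization. Array depth is not defined; 3 arrays per group limit the precision.

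Strains were tested with limma 3.58.1 in R 4.3.3 (lmFit with 12 group means, eBayes, two-sided) on 27630 probe sets whose highest group mean exceeded the array median, with 64 controls left out; 10 of 18 member probe sets passed. A call needs 1.5-fold and p below 0.05 after Benjamini-Hochberg adjustment, and a stage count a 2-fold difference in each strain. Members and lists were chosen with earlier results of these data known. All member probe sets are named. Wider lists have 1 probe set per gene, that with the highest mean over the brain arrays. Of these lists, genes called between strains are named, and up to 4 per list with the largest change from E14.5 to P90. Likeness is Pearson r, with the 3 most like genes. Regional and liver genes read at E14.5, Gabra6, Atoh1 and the hindbrain genes were chosen after their values were seen. Fits were tested on simulated data. Same-numbered samples correlated above 0.1 in 9 of 9 pairs at P7 (0.11 to 0.83) and in 3 of 3 pairs of 129S2 and B6 at P1 (0.37 to 0.68). At the other stages and contrasts at least 1 pair did not, but at P1 replicate 3 reached 0.72 (D2 and B6) and 0.66 (129S2 and D2). At P7, 129S2 replicate 3 correlated more with replicate 1 of B6 (0.47) and D2 (0.52) than with their replicate 3 (0.11 and 0.16). Whether the numbers pair the samples is thus not settled. An item among the listed genes is not reported here. Alternatives were other filters, normalizations, variance models, fold minima, array weights, a replicate block and each array left out.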

Additional observations from a re-analysis of the deposited data

Results flagged for a closer look

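The strain differences of Car8 1427482_a_at varied with stage, by up to 2.07 log2 units (limma interaction, adjusted p = 7.19e-08). 129S2 and D2 were below B6 at E14.5, by differences of -1.73 and -1.84, and at P7 the differences were 0.35 and 0.17. Calb1 1456934_at varied by up to 0.73 (limma interaction, adjusted p = 0.0237), with the D2 arrays above both other strains at P1. Both compare strain differences across stages that were normalized apart.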

How the results depend on the processing

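Within stages, the 4 calls became 11 without a minimum on level or with a minimum at the median of all 72 arrays (both through Car8 1457904_at), and 8 without a fold minimum; the averaged calls, 0, became 2, 2 and 6 in these settings, 3 with array weights and 1 without both E14.5 arrays high in Alb (chosen after seeing the data). The 2 interaction calls became 1 at 2-fold. Leaving out each array gave 4 to 7, 0 to 2 and 1 to 3 calls. The highest within-stage count, 7, came without D2 P1 replicate 2 and without 129S2 P7 replicate 2, and 2 averaged calls, both of En2, came without 129S2 E14.5 replicate 3. The cause was not tested. Both Car8 calls held in every setting (adjusted p at most 0.00322), and both En2 calls in all but the fit of the 9 E14.5 arrays.

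With a replicate block within each stage 6 within-stage, 0 averaged and 2 interaction calls resulted. The calls gained were Zic1 1423477_at for D2 minus B6 at P7, given above, and at P1 (limma adjusted p = 0.00733), and the block changed no other call. Same-numbered samples of D2 and B6 correlated between 0.63 and 0.83 at P7 and between -0.36 and 0.72 at P1. Over all 50 settings, Zic1 1423477_at was called for D2 minus B6 in 7 at P1 and in 5 at P7.

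At a fold minimum of 1.5, P1 over E14.5 counted 4 higher and 3 lower, P7 over P1 counted 1 and 2, P90 was below P7 for 4 and below E14.5 for 5. At 4-fold, P1 was above E14.5 for 0, P90 was above P7 for 1 and below it for 0, and P90 was below E14.5 for 0. As deposited, P90 was above P7 for 1, below it for 4 and below E14.5 for 6. Leaving out each array gave 2 higher and 1 lower for the first step, 0 and 0 for the second, 3 higher and 2 to 3 lower for the third, and 3 to 4 higher and 2 to 3 lower overall.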

Other observations

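Car8 probe set 1457904_at showed the order of strains seen in brain in adult liver as well. In P90 liver it read 4.43, 4.43 and 4.07 in 129S2, 4.45, 3.93 and 4.33 in D2 and 6.06, 5.89 and 5.56 in B6, so every B6 array was above all others. In P7 liver it read 4.19, 4.19 and 4.05 in 129S2, 3.88, 4.01 and 4.19 in D2 and 4.44, 5.79 and 4.72 in B6, again with B6 above. Probe set 1427482_a_at, which reads the same gene, had B6 lowest in P90 liver, at 10.70, 10.88 and 10.79 in 129S2, 10.51, 10.38 and 10.38 in D2 and 9.85, 10.14 and 9.69 in B6. These liver values were looked at after the brain result was known, and no test was fitted.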
